A study of Mus musculus with 4 samples.

Results

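miR-466f-3p is a mouse microRNA (miRNA) of the miR-466 family and the study's focal miRNA. It was measured by 1 probe, matched here by its exact name on the array, mmu-miR-466f-3p, among 705 mouse miRNA probes. It was selected on its own difference in intensity between good and poor performers. The study set good performers against poor performers in the Morris water maze, where a swimming mouse has to learn the place of a platform hidden under the surface. All mice were wild-type C57BL/6J, a common inbred laboratory strain, and all were trained in the maze, with the hippocampus taken immediately after training. The good performers had 2 arrays and the poor performers had 2 arrays, from 4 mice in each group, and nothing analysed here says how the mice were divided over the arrays, how old they were or which rule separated the performers. No untrained mice were among the samples analysed.

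MicroRNAs are short RNAs that guide the silencing of messenger RNAs, chiefly by pairing through the seed, which is bases 2 to 8 of the miRNA. miR-466f-3p belongs to a large group of rodent miRNAs that also takes in the miR-467, miR-669 and miR-297 families. Most of their genes lie in a dense cluster inside Sfmbt2, an imprinted Polycomb-related gene, and many members carry runs of alternating A and C or of G and U. In RefSeq's annotation of the mouse genome (GRCm38.p6), 71 of 81 genes of these families lay within Sfmbt2. Of the 4 genes named Mir466f, 3 lay within Sfmbt2 on chromosome 2 and Mir466f-4 lay outside it, on chromosome 13. The study's title places miRNAs between CREB, an activity-dependent transcription factor that is needed for long-term memory, and MEF2, a transcription factor family that limits the growth of synapses.

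No mature sequence of miR-466f-3p was found in the RefSeq set used, so none is shown and sharing of its seed was not computed. RefSeq mature sequences were matched for 6 of the 24 other family probes that passed the detection filter, and 18 had no match. All 6 that matched are shown, and of these 3 are rich in alternating A and C and 3 in alternating G and U. That contrast, which does not include miR-466f-3p, is taken up with their values below. Each is written with the seed in capitals, the AC-rich ones first.
miR-466i-3p: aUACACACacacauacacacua
miR-467f: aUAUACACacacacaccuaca
miR-467g: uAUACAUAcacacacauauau
miR-467h: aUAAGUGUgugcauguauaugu
miR-466j: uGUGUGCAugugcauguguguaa
miR-669n: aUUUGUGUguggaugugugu
The array's probe is named miR-466i with no arm, and the table holds its 3p strand. In GRCm38.p6 these mature sequences lie at chr13:17747552-17747573 (plus strand), chr11:69635419-69635439 (minus), chr5:34732872-34732892 (minus), chr9:115381898-115381919 (plus), chr10:60960802-60960824 (plus) and chr3:115979905-115979924 (plus), in the order shown. No 2 of the 6 share a seed, and none of the 6 lies within Sfmbt2.

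Detection on each array was read from the authors' spot flags, beside the brightness of blank spots. Between 310 and 330 miRNA probes per array had at least 2 of their 3 spots free of the authors' flag, and blank spots averaged 63.0 to 64.4 intensity units. Of the tissue markers, all 5 probes of neuronal miRNAs (miR-124, miR-9, miR-128, miR-138 and miR-132) were unflagged on all 12 spots, while miR-122 of liver was flagged on every spot. Of the islet and pituitary miRNAs, miR-375 was flagged on every spot and miR-7a was unflagged on all 12. The muscle miRNAs miR-1, miR-133a and miR-206 were unflagged on 12, 4 and 9 of 12 spots. Among immune cell markers miR-223 and miR-142-3p were flagged on every spot and miR-150 on none, and among red blood cell markers miR-451, miR-486 and miR-144 were unflagged on 12, 11 and 1 of 12. In whole hippocampus, fewer cells of a type and less RNA per cell cannot be told apart.

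miR-466f-3p was brighter on both good-performer arrays than on both poor-performer arrays, at every spot. This is the difference it was selected on, so its values are a description and carry no test. On good-performer replicate 1 the 3 spots read 1014, 912 and 903 raw intensity units, and on good-performer replicate 2 they read 1095, 969 and 970. On poor-performer replicate 1 they read 621, 546 and 574, and on poor-performer replicate 2 they read 681, 589 and 595. None of the 12 spots was flagged, and none was near the scanner's ceiling of 65535. The dimmest good-performer spot (903) was brighter than the brightest poor-performer spot (681), so the spots of the groups did not overlap.

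**Figure D1:**
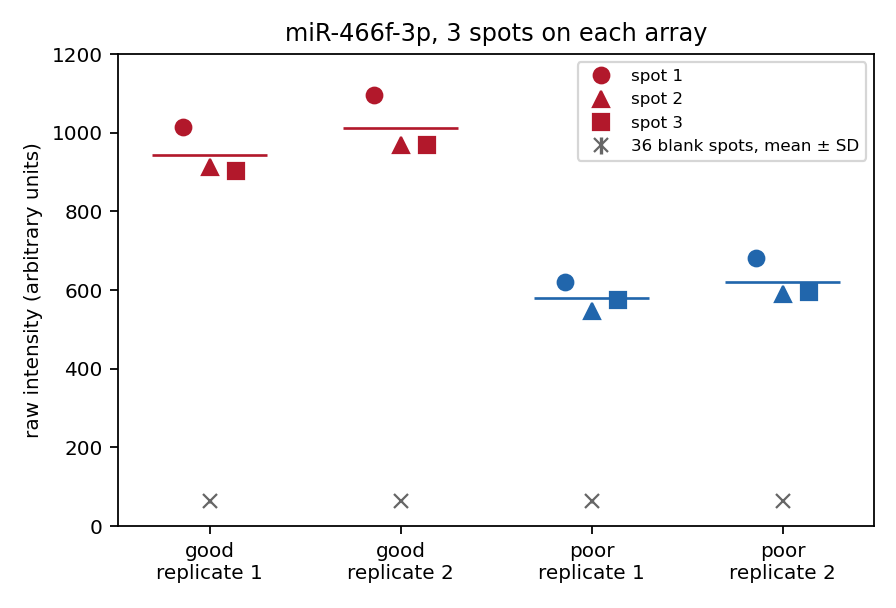
Raw intensity (y axis, arbitrary units, linear from 0) of the 3 miR-466f-3p spots on each array (x axis), with the mean of the 3 spots as a bar. Crosses give the mean of 36 blank spots, whose SD is smaller than the symbol. The good-performer spots lie between 903 and 1095 and the poor-performer spots between 546 and 681.

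The array means of raw intensity were 943 and 1011 in good performers, against 580 and 622 in poor performers. Averaged over arrays, that is 977 ± 48.3 in good and 601 ± 29.2 in poor performers (SD, n = 2 arrays each), a ratio of 1.63. Set against the blank spots of the same array, the signal was 15.0 and 15.7 times their mean in good performers and 9.07 and 9.73 times their mean in poor performers. The spots of an array spread by 6.54% and 7.16% of their mean (coefficient of variation) in good and by 6.53% and 8.28% in poor performers. Part of that spread was shared by the arrays, because the first spot was the brightest on all 4. Comparing each spot only with the same spot on the other arrays, the raw ratio of good over poor performers was 1.62, 1.66 and 1.60 for spots 1, 2 and 3.

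After background correction, quantile normalization and averaging of the spots, miR-466f-3p had a log2 intensity of 9.88 and 9.93 in good performers and of 9.29 and 9.28 in poor performers. The group means were 9.90 ± 0.033 in good and 9.29 ± 0.0032 in poor performers (SD, n = 2 arrays each). The difference was 0.62 ± 0.02 log2 units (SE from the arrays), or 1.53-fold higher in good performers. The 2 good-performer arrays differed by 0.05 log2 units and the 2 poor-performer arrays by -0.0046 (replicate 2 minus replicate 1). The smallest difference between any good-performer and any poor-performer array was 0.59, and the largest was 0.64. Among all 316 probes that passed the detection filter, 23.1% had both good-performer arrays above both poor-performer arrays, so the absence of overlap was common and is not read as a result.

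In the authors' deposited table, the normalized intensity of miR-466f-3p was 892 and 928 in good performers, against 624 and 610 in poor performers. The ratio of those group means was 1.48, and the log2 ratio in the authors' deposited table was 0.56, the highest of 383 listed probes. In that table most probes lay below 0, namely 318 of the 383, with a median log2 ratio of -0.08. Relative to the median of the 316 filtered probes, the difference of miR-466f-3p was 0.64 in the authors' normalized intensities and 0.62 in the quantile-normalized values.

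The same hairpins can release a second strand, and the array carried a probe named miR-466f-5p and another named miR-466f, with no arm. Both were dim but unflagged on all 12 spots. miR-466f-5p averaged 112 and 117 raw intensity units in good performers, against 104 and 109 in poor performers, which is 1.78 and 1.82 times the blank spots in good and 1.63 and 1.71 times in poor performers. Its log2 difference of 0.06 did not pass (limma adjusted p = 0.321). miR-466f averaged 98.7 and 105 in good performers, against 98.3 and 101 in poor performers. Its log2 difference was 0.00037 (limma adjusted p = 1), and its groups overlapped. At a signal this close to blank spots, the offset used in the background correction shrinks any difference, so a change in either RNA of the size seen for miR-466f-3p cannot be set against these values directly. The difference between these probes and miR-466f-3p was not tested, since miR-466f-3p was chosen for its own.

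The probes most like miR-466f-3p over the 4 arrays all came from its wider family. Likeness was the Euclidean distance between log2 intensities after each probe's own mean was removed, over 4 arrays, so it weighs the size as well as the shape of a profile. The nearest was miR-467b*, at a distance of 0.05 log2 units, with 8.76 and 8.74 log2 intensity in good and 8.16 and 8.13 in poor performers. Next came the joint probe for miR-467a-1* and miR-467d* (distance 0.11), miR-466i (0.13), miR-669f (0.15) and miR-466g (0.17). The first probe from outside the family was miR-574-3p, the 10th in order, at 0.39. The median distance over the 315 other filtered probes was 0.63. With 4 arrays in 2 groups, this likeness mostly restates a difference of about the same size between the groups.

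**Figure D2:**
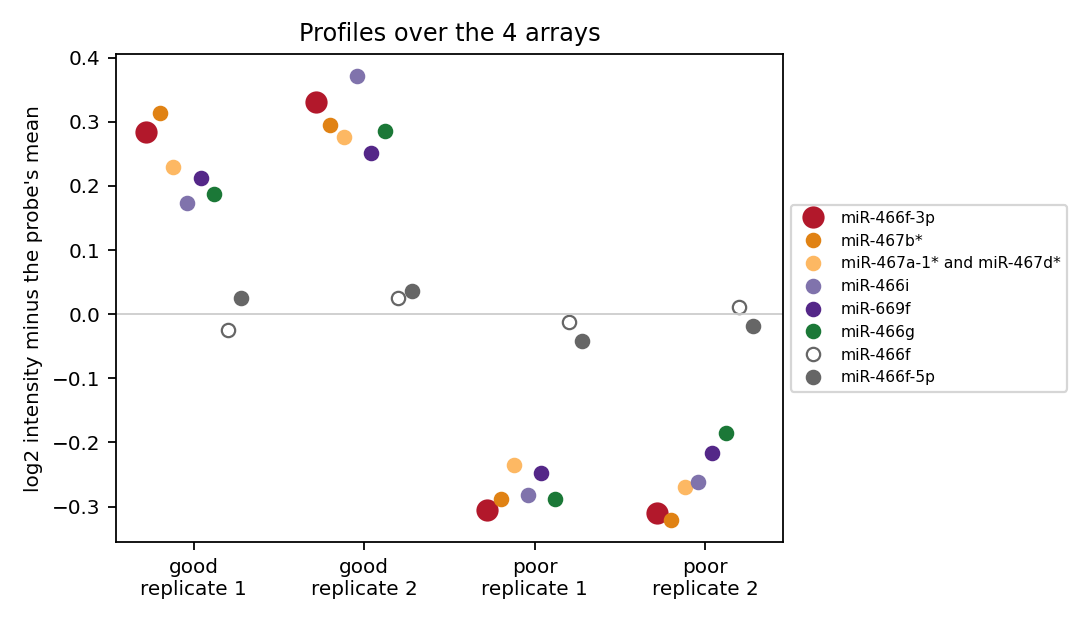
Log2 intensity minus each probe's own mean (y axis) on the 4 arrays (x axis) for miR-466f-3p, the 5 probes nearest to it, and the probes named miR-466f and miR-466f-5p; points are offset sideways for legibility. The first 6 probes lie above their means on both good-performer arrays and below them on both poor-performer arrays, while miR-466f and miR-466f-5p stay near 0.

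miR-466f-3p had the highest log2 difference of the 316 filtered probes, but the next in order was not separated from it by more than the spread between arrays. miR-467b* followed at 0.61 ± 0.02 (SE), then miR-466i at 0.54 ± 0.10 and the joint probe for miR-467a-1* and miR-467d* at 0.51 ± 0.03. The lowest difference was that of miR-2133, at -0.64, which is larger in size than that of miR-466f-3p. Of 13 processing settings that kept all 4 arrays, the reported one included, miR-466f-3p ranked highest in 11. These are not 13 separate rankings. Scaling to the 75th percentile, scaling to the spike-ins and no normalization differ only by a constant per array, so they share their ranking. Centring the authors' table keeps its ranking too, and the replicate block repeats the reported differences. miR-466f-3p came after miR-467b* with offset 1 (0.66 against 0.71) and with cyclic loess (0.62 against 0.64). When 1 array was left out it ranked highest without poor-performer replicate 2 and second without each of the other 3 arrays. Its difference stayed between 0.52 and 0.70 in every setting tried.

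**Figure D3:**
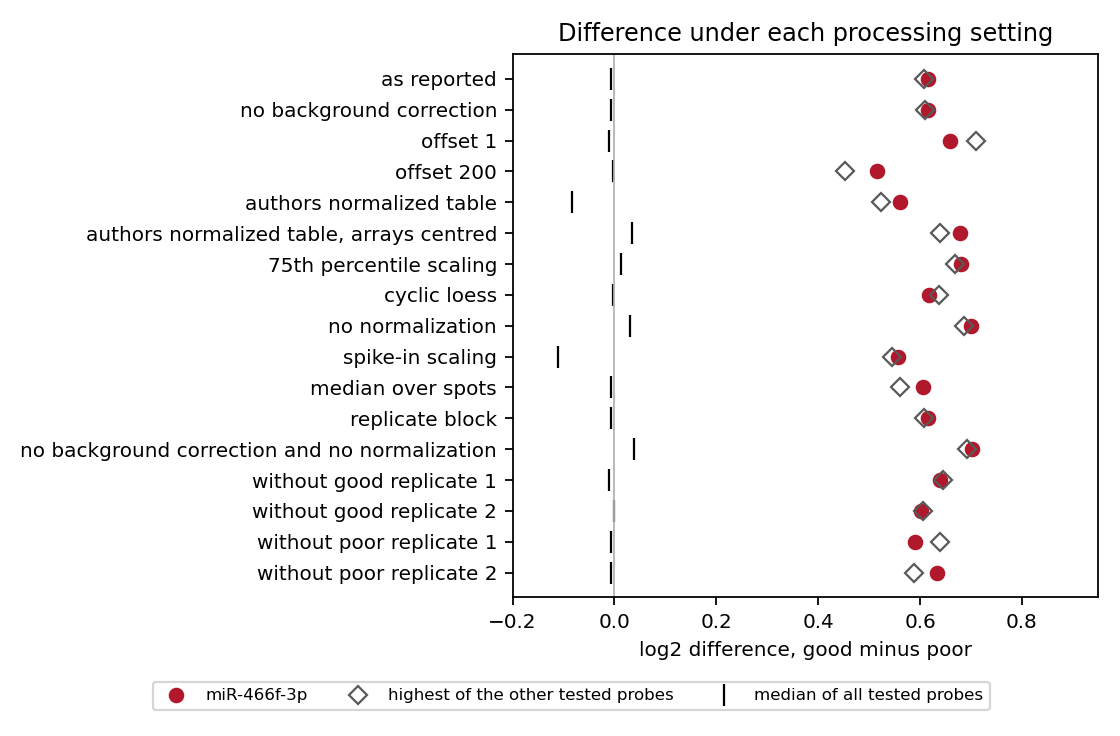
Log2 difference, good minus poor (x axis), under each processing setting and with each array left out (y axis): miR-466f-3p as a filled circle, the highest of the other filtered probes as an open diamond, and the median of all filtered probes as a tick. The circle lies between 0.52 and 0.70 throughout and close to the diamond, while the tick lies between -0.11 and 0.04.

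Other members of the family were tested with all filtered probes in one fit, and their choice was made with earlier results of these data known. Of 47 other probes of the miR-466, miR-467, miR-669 or miR-297 families, 24 passed the detection filter. Of these, 8 were called higher in good performers and none lower (limma, adjusted over 316 probes). Across all 316 filtered probes, 3.16% were called higher and 1.9% lower, a count that includes miR-466f-3p itself, for which the call is no test because it was chosen on this difference. Without it, 2.86% of the other 315 were called higher and 1.9% lower. At an unadjusted p under 0.05 (limma), 11 of the 24 were higher and 0 lower. All 316 filtered probes, miR-466f-3p included, had 32 higher and 34 lower at that unadjusted threshold. The 8 were miR-467b* (adjusted p = 0.0058), the joint probe for miR-467a-1* and miR-467d* (0.0065), miR-467e* (0.0065), miR-669f (0.0065), miR-467f (0.011), miR-467g (0.030), miR-466g (0.031) and miR-466i (0.041). The median log2 difference of the 24 was 0.14, against -0.0072 over all filtered probes, and their range was -0.02 to 0.61. The count of 8 was 5 with offset 1, 4 in the authors' normalized table, 4 with the median over spots, and 0 without any single one of the 4 arrays (limma; 42 to 58 of all filtered probes at an unadjusted p under 0.05).

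Among the 6 members printed above, the log2 difference was 0.54 for miR-466i, 0.45 for miR-467f and 0.39 for miR-467g, whose sequences hold 8, 7 and 5 AC steps and no GU step. It was 0.13 for miR-467h, 0.02 for miR-466j and 0.01 for miR-669n, whose sequences hold 5, 6 and 6 GU steps and no AC step. None of these last 3 passed (limma adjusted p = 0.207, 0.933 and 0.921). The GU-rich probes were also dimmer, with array means of 83 to 111 raw intensity units against 169 to 1030 for the AC-rich ones. The offset shrinks the differences of dim probes more, so repeat type and brightness cannot be told apart here. Whether RNAs with the same repeat bound each other's probes was not tested.

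**Figure D4:**
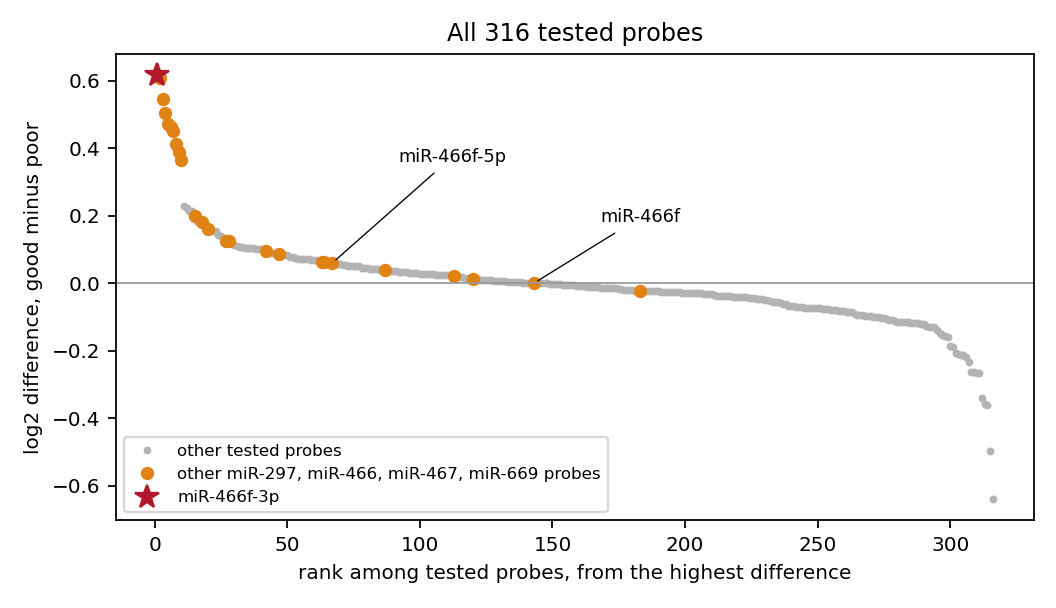
Log2 difference, good minus poor (y axis), of all 316 filtered probes against their rank (x axis). The star is miR-466f-3p, orange points are the 24 other family probes, and grey points are the rest. miR-466f-3p and 9 family probes occupy the 10 highest ranks, and miR-466f-5p and miR-466f lie at ranks 67 and 143.

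Several control RNAs differed in the same direction as miR-466f-3p, by less. On raw log2 intensity, where miR-466f-3p differed by 0.70, the 5 spike-in controls, which are RNAs added to the sample, differed by 0.05 to 0.26, against a median of 0.04 over all filtered miRNA probes. The 2 probes for U2, a small nuclear RNA of the spliceosome, differed by 0.52 and 0.46, and the 3 probes for U6 by 0.11, 0.08 and 0.08. The probes for U4 differed by 0.32 and 0.18, that for U5 by 0.13 and that for U1, which had 6 saturated spots, by 0.09. The remaining controls apart from the blanks, m-3b, U3, U8 and m-73B, differed by 0.22, 0.07, 0.06 and 0.01. Scaling to the spike-ins gave 0.56 for miR-466f-3p, with a median of -0.11 over all filtered probes. The part of U2, of the other control RNAs and of overall brightness in the result was otherwise not tested. Among the tissue markers, miR-219 of oligodendrocytes, the myelin-forming cells, was called lower in good performers (-0.27, limma adjusted p = 0.025). The other oligodendrocyte marker, miR-338-3p, had -0.07, and the part of oligodendrocytes was not tested. No probe of the neuronal list passed (-0.07 to 0.14), nor of the astrocyte list (0.10 to 0.11) or the vascular list (-0.08 to -0.02).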

How the data were processed

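Cy5-labelled hippocampal RNA, 2.5 µg per sample, was hybridised to 1 miRNA array per sample, per the labels' protocols. The authors' raw table holds a linear intensity, not normalized, and a quality flag for each spot, per the file headers. It lists 2115 miRNA spots (705 probes, 3 spots each), 36 blank spots and 18 other control probes. The deposited normalized intensity covers 383 probes, and a log2 ratio deposited beside it sets good over poor performers. It matched the log2 ratio of the group means to within 4.9e-05. No source used here gives how the authors normalized, or which scanner and array design they used.

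Background was corrected by normexp (limma 3.58.1, R 4.3.3) over every spot with an offset of 50. Log2 values of miRNA spots were then quantile-normalized, and the 3 spots of a probe averaged. Differences are on that offset scale, which understates changes of dim probes. A probe was tested where either group had at least 2 unflagged spots on each of its arrays, which left 316. Groups came from the performance label and were compared by limma's moderated linear model (lmFit, eBayes; two-sided) at a Benjamini-Hochberg adjusted p of 0.05, and the fit was tested on simulated data. An exact permutation test with 2 arrays per group cannot give a p under 0.333. Nothing says that arrays of a group came from separate animals, so p-values measure only how arrays vary, which may be technical. Arrays of a group differed by 2.41 (good) and 2.20 (poor) times the variance that spot noise predicts and were counted as 2.

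The members and lists were chosen with earlier results of these data known. Named were miR-466f-3p, other products of its hairpins, the 5 nearest probes, called family probes, the 3 probes next below it and the lowest, control probes and tissue markers. miR-574-3p and the control probes other than the spike-ins, U2 and U6 were named after their values were seen. miR-467h, miR-466j and miR-669n fall outside the lists above and were named because a RefSeq mature sequence matched. The comparison of AC-rich with GU-rich members was not planned. Alternatives covered background correction, offset, normalization, spot averaging, the filter, the variance model, a replicate block and leaving out each array. Sequences came from RefSeq (GRCm38.p6). No build is named for the array.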

Additional observations from a re-analysis of the deposited data

How the results depend on the processing

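The log2 difference of miR-466f-3p kept its direction in every setting tried. It moved by less than the SD between replicates without background correction, with cyclic loess, with the median over spots and for spot 1 alone. It was 0.66 with offset 1, 0.52 with offset 200, 0.56 in the authors' normalized table, 0.68 in that table after centring each array, 0.68 with 75th percentile scaling, 0.70 without normalization and 0.56 with spike-in scaling. It was 0.65 from spot 2 alone and 0.59 from spot 3 alone. With neither background correction nor normalization, a setting added after the data were seen, it was 0.70. Without 1 array it ranged from 0.59 to 0.64.

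The 16 probes called (10 higher, 6 lower) include miR-466f-3p, which was chosen on this difference, so its call is no test, and counts in other settings may include it too. The 16 became 7 with offset 1, 37 in the authors' normalized table (6 higher, 31 lower), 31 with spike-in scaling (10 higher, 21 lower), 6 with the median over spots, 30 with a trended and robust variance model, and 0 to 0 without 1 array (42 to 58 at an unadjusted p under 0.05). The split was 12 to 3 without normalization, 16 to 6 with 75th percentile scaling, 12 to 2 with neither background correction nor normalization, 15 to 5 in the centred authors' table and 6 to 1 with offset 1. The 8 other family probes called became 5 with offset 1 (without miR-467g, miR-466g and miR-466i), 4 by spot medians and 4 in the authors' own normalized table (in both without miR-467f either), and 0 to 0 without 1 array. A fit on 3 arrays has fewer degrees of freedom and takes the spread of the single array from the other group. Whether this or reliance on single arrays lay behind the lost calls was not tested, nor was the cause of the other changes. With the replicate number as a block, the difference of miR-466f-3p was 0.62, 13 probes passed, and all 8 family calls were kept. Arrays with the same number deviated from their group means with a correlation of 0.18, and 2 pairs are too few to take the numbers as pairing.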

Other observations

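The first spot of miR-466f-3p was its brightest on all 4 arrays. Of the 316 filtered probes, 51 had the first spot brightest on every array, 2 the second and 91 the third, so 1 spot led throughout for 144 probes. For miR-466f-3p, the raw ratio of good over poor performers at each of its spots was 1.62, 1.66 and 1.60.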
